A study of Mus musculus with 6 samples.

Results

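Inhibitors of cyclin-dependent kinases and the retinoblastoma (Rb) family were examined in progenitors of mouse marrow that had been separated by GFP from the Hes1 locus. The set holds 10 genes: the Cip/Kip inhibitors Cdkn1a (p21), Cdkn1b (p27) and Cdkn1c (p57), the INK4 inhibitors Cdkn2a, Cdkn2b, Cdkn2c and Cdkn2d, and the pocket proteins Rb1, Rbl1 (p107) and Rbl2 (p130). Members were all probe sets that the platform annotation assigns to exactly 1 gene, where that gene is on this list, which gave 17 of 45037 probe sets and 10 of 18193 genes. A probe set is a group of short array probes read out as 1 value. The cells came from male mice aged 6 weeks of genotype Hes1 GFP/WT, in which 1 Hes1 allele carries green fluorescent protein, and were lineage negative, cKit+ and Sca1-. All 6 arrays share this genotype and surface phenotype, and the 2 groups of 3 arrays differ in the sorted fraction, GFP positive or GFP negative. The labels do not say whether arrays come from separate animals or from pools, so the spread behind every p-value is that between arrays and may be technical.

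Cells leave G1 when cyclin D with Cdk4 or Cdk6, and then cyclin E with Cdk2, phosphorylate the pocket proteins and release E2F transcription factors. INK4 proteins bind Cdk4 and Cdk6, whereas Cip/Kip proteins bind cyclin-kinase complexes more broadly, and both hold cells in G1. In blood formation, p57, p27 and p21 are linked to the rest of stem cells, p18 (Cdkn2c) limits the renewal of stem cells, and Rb is needed for red cell precursors to stop dividing and mature.

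Promoter sequence is shown for Cdkn1a, the only member gene called different between the groups, and for Rbl1, a member that is itself a known E2F target. Each line gives the 250 bases before a start site in RefSeq (build GRCm38.p6), 5′ to 3′ in the direction of transcription, and capitals mark the motifs described after them. 8 of the 10 members matched an entry in this table.
Cdkn1a, upstream start, chr17:29090729-29090978, plus strand: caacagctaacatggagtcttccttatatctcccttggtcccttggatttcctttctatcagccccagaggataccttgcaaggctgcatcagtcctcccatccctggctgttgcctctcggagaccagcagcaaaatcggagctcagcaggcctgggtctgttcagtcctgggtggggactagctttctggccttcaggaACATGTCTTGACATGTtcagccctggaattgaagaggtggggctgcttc
Cdkn1a, downstream start, chr17:29093519-29093768, plus strand: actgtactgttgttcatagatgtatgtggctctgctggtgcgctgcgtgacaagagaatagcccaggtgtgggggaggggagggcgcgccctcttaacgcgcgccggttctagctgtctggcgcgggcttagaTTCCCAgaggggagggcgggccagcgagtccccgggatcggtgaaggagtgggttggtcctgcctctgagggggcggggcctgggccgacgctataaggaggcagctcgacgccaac
Rbl1, chr2:157204535-157204784, minus strand: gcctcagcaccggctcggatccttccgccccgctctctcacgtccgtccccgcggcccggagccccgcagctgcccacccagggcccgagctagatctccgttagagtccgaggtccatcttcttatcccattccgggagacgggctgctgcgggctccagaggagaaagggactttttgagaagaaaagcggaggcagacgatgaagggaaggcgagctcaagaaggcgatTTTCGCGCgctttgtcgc
The motifs were searched on both strands in this window of all 32851 promoters. The capitals of the upstream Cdkn1a start are a pair of ACATGT cores with 4 bases between them, the form of a p53 family binding element, at 49 to 34 bases before the start. The spacing was taken from this element after the sequence had been read, so the match is given by the choice, and 4 of all promoters (0.0122%) hold it. The capitals of the downstream Cdkn1a start are TGGGAA on the opposite strand, the core recognised by Rbpj, the DNA-binding partner of Notch, and 21.6% of all promoters hold that core. In Rbl1 the capitals are TTTCGCGC, 1 of the 4 E2F motifs searched (TTTCGCGC, TTTGGCGC, TTTCCCGC and TTTGCCGC), at 18 to 11 bases before the start, and 1.86% of all promoters hold at least 1 of them. The other member promoter with an E2F motif was that of Cdkn2a, where it does not overlap a TGGGAA core. A match of letters is a description and shows no binding in these cells.

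Signals were measured on Affymetrix arrays and are given as log2 intensity. Array medians on the linear scale were 63.6 to 64.8 in GFP-negative and 59.9 to 62.1 in GFP-positive arrays, which did not overlap, and subtracting them raises every log2 difference by 0.08. With that, 5218 probe sets are called higher and 3267 lower, against 2860 and 3452 without, and Rb1 and Cdkn2c pass. The arrays correlated at r = 0.989 to 0.993 within groups and 0.973 to 0.979 between groups across probe sets, which are not independent replicates. Kit, on which cells were sorted, lay at 11.13 to 11.53, and the lineage genes Cd3e (4.62 to 6.29), Ms4a1 (3.77 to 4.35) and Itgam (3.83 to 4.45) lay in the dimmer part of the arrays. Hes1 was 7.12 to 7.20 in GFP-positive and 5.74 to 6.01 in GFP-negative arrays, the direction its reporter labels give. Jchain, the joining chain gene of immunoglobulins in plasma cells, was at 8.85 in GFP-negative array 3 and 8.65 in GFP-positive array 1. On the other 4 arrays it was at 3.64 to 4.08. Counts are therefore also given without GFP-negative array 3 and GFP-positive array 1.

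Of the 10 member genes, 1 fell, Cdkn1a, and 0 rose in GFP-positive cells. The other 9 did not pass (limma, Benjamini-Hochberg adjusted p under 0.05 over all probe sets). By probe set, 2 of 17 fell, both of Cdkn1a, and 0 rose. At an unadjusted limma p under 0.05, 2 of the 10 genes were higher (Rb1 and Cdkn2c) and 2 lower (Cdkn1a and Cdkn2d), against 22.0% and 15.1% of all genes. By probe set 2 were higher and 3 lower, against 18.2% and 13.3% of all probe sets. Among all probe sets 14.0% were called, with 7.66% lower and 6.35% higher, and among genes 18.1%, with 9.92% lower and 8.15% higher. The 1 member gene of 10 that fell is a share close to the 9.92% of all genes called lower, and both probe sets that fell are of that 1 gene. The arrays of the 2 groups did not overlap for 5 of the 10 member genes (Cdkn1a, Cdkn2a, Cdkn2c, Cdkn2d and Rb1), against 45.6% of all genes, and for 7 of the 17 member probe sets, against 38.5% of all probe sets (14.2% with GFP-positive arrays lower and 24.3% higher; for genes 16.7% and 28.9%). GFP-positive arrays were lower in 3 of these 7 probe sets and higher in 4. The median log2 difference of the 10 genes was 0.13, and that of all genes 0.11. In difference, 6 of the 10 genes lay above 0 and 4 below.

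**Figure D1:**
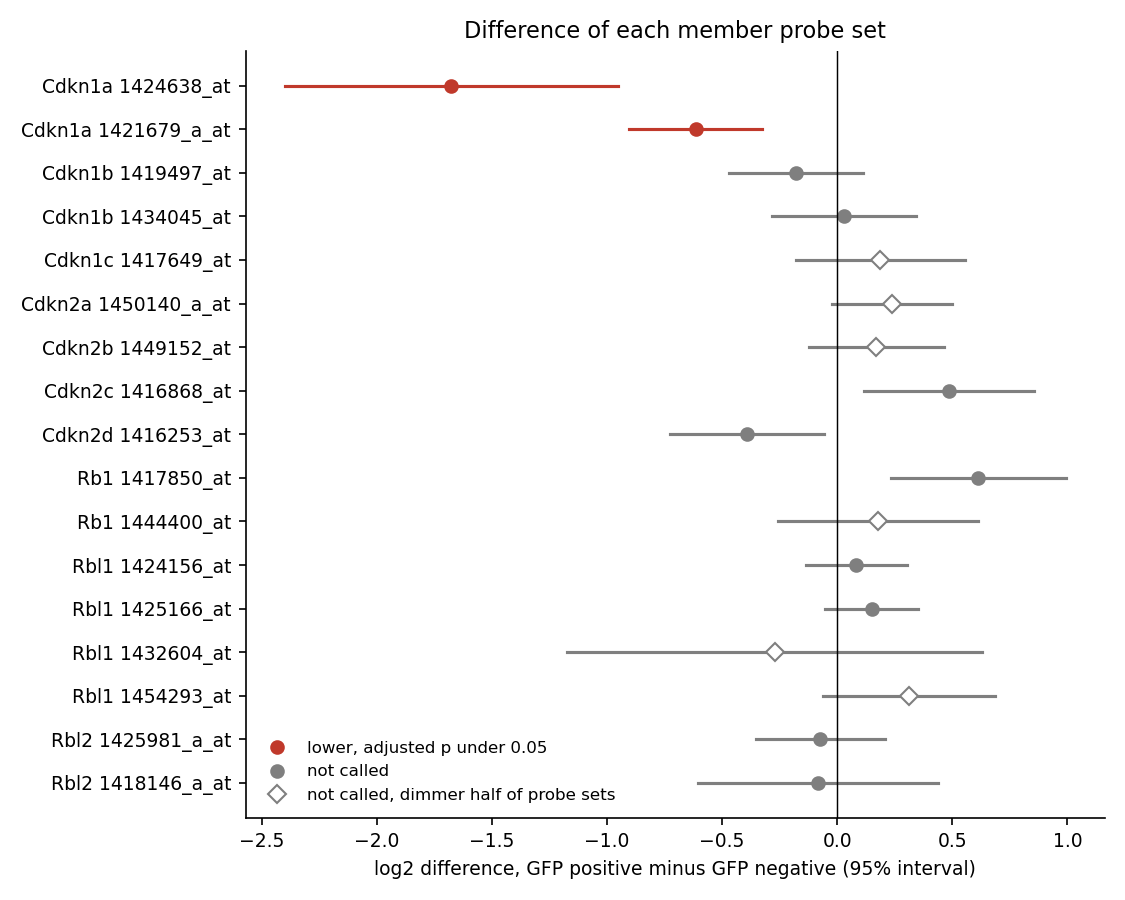
The log2 difference between GFP-positive and GFP-negative arrays (horizontal axis) with its 95% limma interval for the 17 member probe sets; open diamonds lie in the dimmer part of the arrays. Both Cdkn1a probe sets are called lower, at -1.68 and -0.62, and the intervals of Rb1 (1417850_at) and Cdkn2c lie above 0 although neither was called.

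Cdkn1a, the inhibitor p21 that p53 induces and that blocks Cdk2 complexes, was 3.20-fold lower in GFP-positive cells by its brighter probe set (1424638_at). Its log2 intensity was 9.21, 9.32 and 9.13 in GFP-negative arrays 1 to 3, and 8.16, 6.91 and 7.57 in GFP-positive arrays 1 to 3. The GFP-negative arrays lay within 0.19 of each other, the GFP-positive arrays spread over 1.25, and the groups were 0.98 apart at their nearest values. The difference was -1.68 with a standard error of 0.30 (limma adjusted p = 0.0158). Leaving out GFP-negative array 2 gave an adjusted p of 0.0588 and leaving out GFP-negative array 3 gave 0.0528, and the call was kept without each of the other 4 arrays. The dimmer Cdkn1a probe set (1421679_a_at) read 7.44, 7.48 and 7.48 in GFP-negative arrays and 7.07, 6.80 and 6.69 in GFP-positive arrays. It was 1.53-fold lower (difference -0.62, standard error 0.12; limma adjusted p = 0.0214), in the same direction as the brighter one. Its GFP-positive mean of 6.85 lies within the 2.99 to 6.92 of genes of unrelated tissues described further on, as does the 6.91 of the brighter probe set on GFP-positive array 2, so the 1.53-fold is not a measure of how far the transcript fell. GFP-positive array 1 was the highest of its group in both. With 1 array left out the dimmer probe set kept its call in 1 case, that of GFP-positive array 1, and in the other 5 the adjusted p ran up to 0.0767. It was 0.0513 with an intensity trend and 0.0535 without both arrays with Jchain signal.

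The order within the GFP-positive group was shared by the genes whose pattern was nearest to Cdkn1a, by the Euclidean distance of centred log2 values over the 6 arrays among 18193 genes. These were the adhesion molecule Alcam (distance 0.23), the long noncoding RNA Morrbid, which supports the survival of short-lived myeloid cells (0.24), and the phospholipid acyltransferase Lpcat2 (0.25). Alcam read 11.86, 12.02 and 11.96 in GFP-negative and 10.96, 9.52 and 10.14 in GFP-positive arrays. All 3 fell (limma adjusted p = 0.0215, 0.0163 and 0.0218), and each lost its call on leaving out some single arrays (adjusted p up to 0.0729, 0.0607 and 0.0740). Likeness over 6 arrays in 2 groups is a description and rests largely on the group difference.

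Markers of cell states also differed between the groups, some lists lower in GFP-positive cells, as Cdkn1a was, and others higher. In a list of monocyte and dendritic genes, 8 of 11 fell and 1 rose, and the summed intensity was 19029 to 19793 in GFP-negative and 5725 to 7701 in GFP-positive arrays. Of 10 genes of stem and multipotent cells, 10 fell, and their sum was 14557 to 16528 against 5021 to 5466. Of 13 erythroid genes, 10 rose and 0 fell, with sums of 39896 to 40799 and 63339 to 69149. Of 13 granulocyte genes 7 fell and 0 rose (sums 59304 to 67438 and 39996 to 44979). The list was split, as the 6 not called (Camp, Ngp, Ltf, S100a8, S100a9 and Lcn2) lay above 0. Their differences were 0.42 to 2.05, and the Camp groups did not overlap. Of 9 genes of mast cells, basophils and eosinophils 5 fell and 1 rose (15785 to 16947 and 7109 to 10546). Of 11 T and NK cell genes 3 rose (Gzmb, Gzma and Zap70) and 0 fell (338 to 342 and 1158 to 1294). Their median difference was 0.58, with 9 of 11 above 0. Gzmb, at 5.42 and 9.42 in group mean, was the brightest of the list in GFP-positive arrays. Cd3e and Cd3d lay above 0 without being called (0.79 and 0.64), while Cd3g lay at 4.29 and 4.14 in group mean. Of 10 B cell genes 2 fell, Cd79b and Ighm (2810 to 3800 and 1105 to 1769). Of 9 stromal and endothelial genes 2 fell, Pdgfrb and Pecam1 (1098 to 1302 and 609 to 807). These bright genes carried the lower sums. The list medians were 0.07 and 0.22, with 6 of 10 B cell and 5 of 9 stromal and endothelial genes above 0. Of 9 megakaryocyte genes 2 rose and 1 fell (7008 to 8201 and 7952 to 8875). Apart from the megakaryocyte list, the summed levels of the 2 groups did not overlap in any of these lists. The part of these markers in the Cdkn1a result was not tested, and in bulk samples fewer cells of a type and less RNA per cell cannot be told apart.

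**Figure D2:**
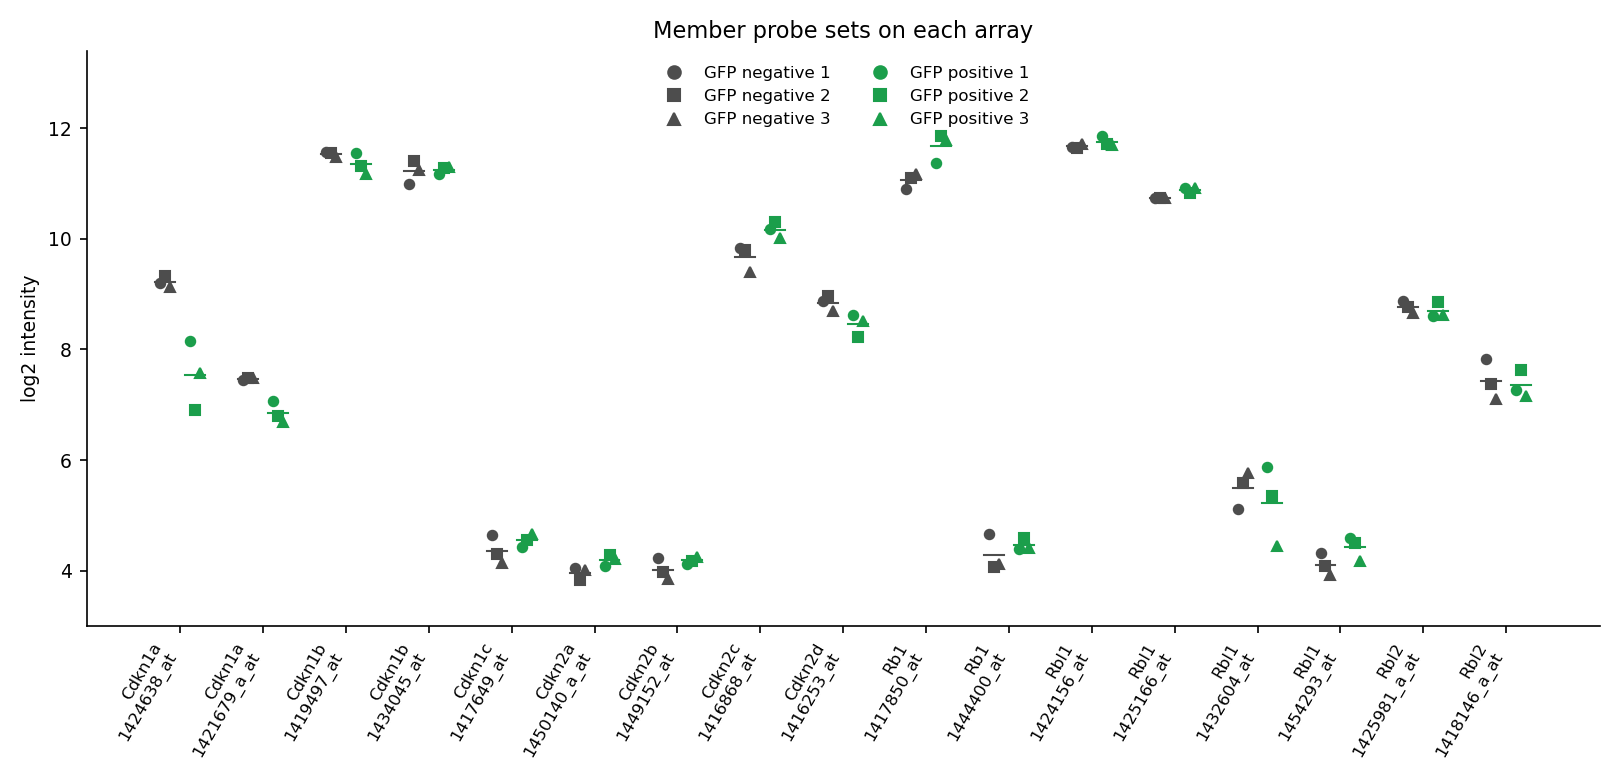
Log2 intensity (vertical axis) of each member probe set on each of the 6 arrays; grey symbols are GFP-negative and green symbols GFP-positive arrays, the symbol shape gives the replicate number and short lines the group means. The GFP-positive Cdkn1a values lie below all GFP-negative ones, and the Cdkn1b and Rbl1 values of the bright probe sets nearly coincide.

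Cdkn1b, the inhibitor p27 that restrains Cdk2 in resting cells, gave bright signal with little difference between the groups. Probe set 1419497_at read 11.57, 11.54 and 11.47 in GFP-negative and 11.55, 11.32 and 11.17 in GFP-positive arrays, and the groups overlapped. The difference was -0.18 (95% interval -0.47 to 0.11, limma adjusted p = 0.348). That interval excludes a change of the size seen for the brighter Cdkn1a probe set, and it overlaps the interval of the dimmer one. The second probe set (1434045_at) read 11.00 to 11.42 and 11.17 to 11.30, a difference of 0.03 (interval -0.28 to 0.34). Cdkn1c, the inhibitor p57 of resting stem cells, read 4.64, 4.30 and 4.14 against 4.42, 4.56 and 4.66. That level is among the dim probe sets described further on, and the difference was 0.19 (interval -0.18 to 0.55; adjusted p = 0.437).

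Among the INK4 genes, the 2 with bright signal differed in opposite directions without passing the threshold. Cdkn2c, the inhibitor p18 of Cdk6 and Cdk4, read 9.84, 9.81 and 9.40 in GFP-negative and 10.18, 10.30 and 10.01 in GFP-positive arrays. The groups did not overlap, the nearest values being 0.17 apart, and the difference was 0.49 (interval 0.12 to 0.86; limma adjusted p = 0.0868). It passed in 1 of 13 alternatives, the subtraction of array medians (adjusted p = 0.0482). Cdkn2d, the inhibitor p19 of the same kinases, read 8.87, 8.97 and 8.70 in GFP-negative and 8.62, 8.22 and 8.52 in GFP-positive arrays. Its groups were 0.08 apart, with a difference of -0.39 (interval -0.73 to -0.06; adjusted p = 0.114), and it passed in 0 of 13 alternatives. Cdkn2a and Cdkn2b, neighbouring genes on chromosome 4 that are silent in most young tissues, gave dim signal. Cdkn2a, which encodes p16 and the p53 activator p19Arf from separate starts that its 1 probe set was not shown to separate, read 4.04, 3.82 and 4.02 against 4.09, 4.29 and 4.22 (difference 0.24, interval -0.02 to 0.50; adjusted p = 0.189). Cdkn2b, the inhibitor p15 that transforming growth factor beta induces, read 4.22, 3.98 and 3.85 against 4.13, 4.17 and 4.25 (difference 0.17; adjusted p = 0.382).

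Of the pocket proteins, Rb1 had the largest difference. Its bright probe set (1417850_at) read 10.90, 11.11 and 11.17 in GFP-negative and 11.37, 11.86 and 11.78 in GFP-positive arrays. All GFP-positive values lay above all GFP-negative ones, by at least 0.20, and the ratio of means was 1.53-fold. The difference was 0.61 (interval 0.23 to 0.99; limma adjusted p = 0.0508), just outside the threshold. Over 13 alternatives the adjusted p ran from 0.0211 to 0.135 and passed in 6 of them. The other Rb1 probe set (1444400_at) was dim, at 4.07 to 4.67 and 4.39 to 4.59, with a difference of 0.18 (interval -0.26 to 0.61).

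Rbl1 and Rbl2 showed no called difference. For Rbl1, the pocket protein that rises in cycling cells, probe set 1424156_at read 11.67, 11.64 and 11.71 against 11.85, 11.71 and 11.70, a difference of 0.08 (interval -0.13 to 0.30; adjusted p = 0.564). Its probe set 1425166_at read 10.73 to 10.75 against 10.83 to 10.92, groups that did not overlap but differed by only 0.15 (interval -0.05 to 0.35; adjusted p = 0.271). The remaining Rbl1 probe sets were dim (1432604_at and 1454293_at), with differences of -0.27 and 0.31 and adjusted p-values of 0.653 and 0.223. For Rbl2, the pocket protein that predominates in resting cells, 1425981_a_at read 8.87, 8.76 and 8.66 against 8.60, 8.87 and 8.61, and the difference was -0.07 (interval -0.35 to 0.21; adjusted p = 0.697). The dimmer Rbl2 probe set (1418146_a_at) gave -0.09 (interval -0.61 to 0.44).

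The ratio of members measured on the same array does not depend on the scaling of arrays, and was computed for the 5 pairs of brighter members within a class, a choice made after the values had been seen. Cdkn2c relative to Cdkn2d shifted by 0.88 on the log2 scale, or 1.84-fold, from 0.83 ± 0.13 in GFP-negative to 1.71 ± 0.32 in GFP-positive arrays (SD, n = 3 each). Cdkn1a relative to Cdkn1b went from -2.31 ± 0.08 to -3.80 ± 0.54. Rb1 relative to Rbl1 shifted by 0.53 and Rb1 relative to Rbl2 by 0.69. In these 4 pairs the groups did not overlap, and in Rbl1 relative to Rbl2, which shifted by 0.16, they did. The exact 2-sided permutation p was 0.1 for each of the 4 and 0.125 adjusted over the 5 pairs. With 3 arrays against 3, this permutation test cannot go below 0.1, and no other test was run on the ratios.

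**Figure D3:**
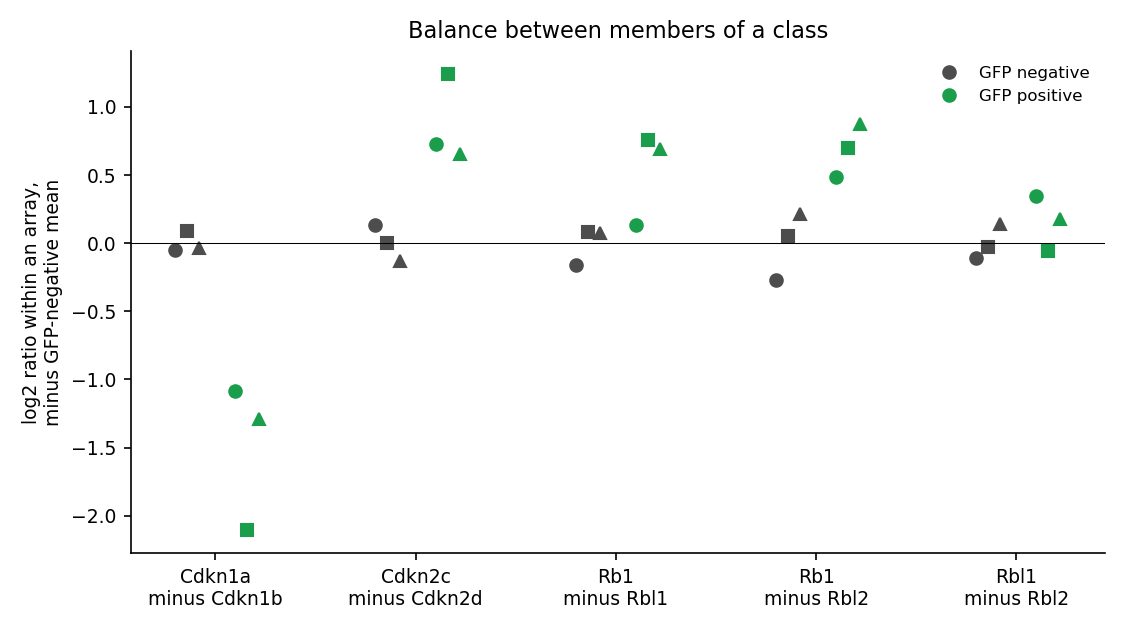
Log2 ratio of paired members on the same array (vertical axis), with the GFP-negative mean of each pair set to 0; grey symbols are GFP-negative and green symbols GFP-positive arrays. The GFP-positive arrays lie apart from the GFP-negative arrays in 4 pairs and among them in Rbl1 minus Rbl2.

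6 of the 17 member probe sets lay in the dimmer 50% of all probe sets by mean signal: those of Cdkn1c, Cdkn2a and Cdkn2b, 1 of Rb1 and 2 of Rbl1. Genes of unrelated tissues such as liver, pituitary and lens, used here to show the dim end of the arrays, had mean log2 intensities of 2.99 to 6.92. All 6 fell in that range. For Cdkn1c, Cdkn2a and Cdkn2b, which have no other probe set, no level above the background of the arrays was shown, whereas Rb1 and Rbl1 were bright at other probe sets. Of the 6, 5 were above 0 in difference, by 0.17 to 0.31. Of the 23 genes of unrelated tissues, 22 were above 0, with a median of 0.23. In the dimmest 15012 probe sets, a comparison added after the values had been seen, 75.0% were above 0 with a median of 0.12. The positive differences of Cdkn1c, Cdkn2a and Cdkn2b, including the Cdkn2a groups that did not overlap, are of the size seen in genes of unrelated tissues, and the part of dim signal in them was not tested.

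**Figure D4:**
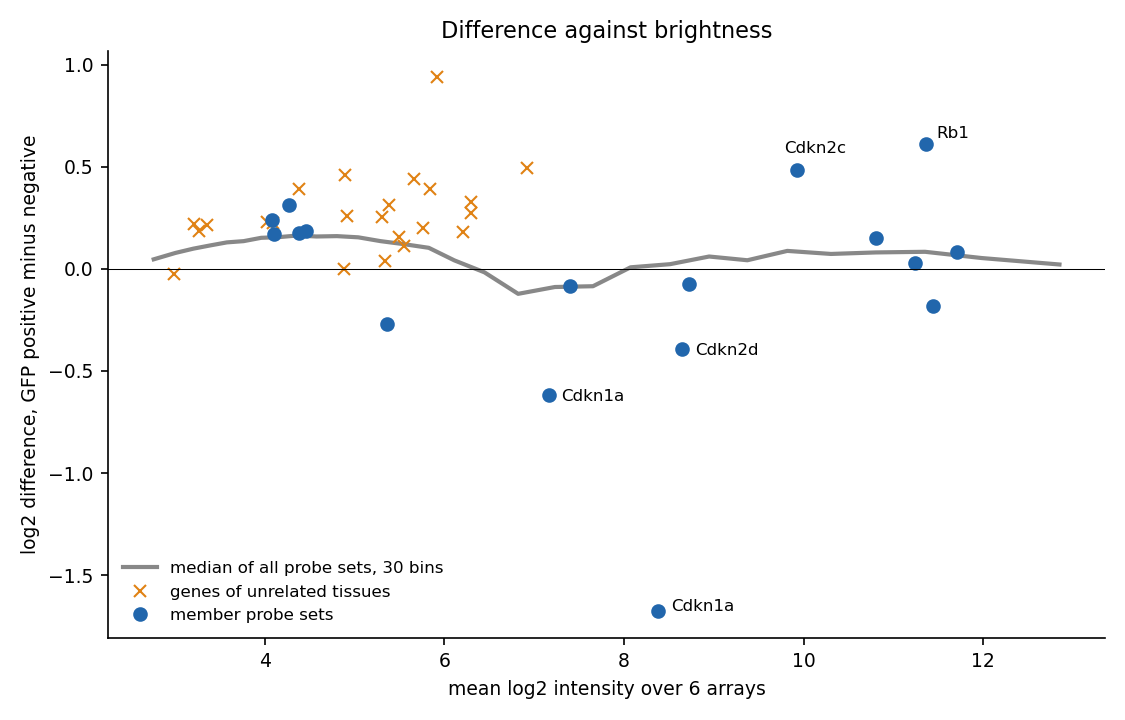
Log2 difference (vertical axis) against mean log2 intensity over 6 arrays (horizontal axis) for member probe sets (blue), genes of unrelated tissues (orange crosses) and the median of all probe sets in 30 bins (grey line). 5 of the 6 dim members lie among the genes of unrelated tissues and 1, of Rbl1, lies below them, whereas both Cdkn1a probe sets, Cdkn2c, Cdkn2d and the bright Rb1 probe set lie away from the grey line.

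The genes that the inhibitors and pocket proteins act on, or are controlled by, were described in 8 lists with 138 distinct measured genes. For each list the count of calls is to be read against 8.15% of all genes called higher and 9.92% called lower. Among 13 G1 cyclins and kinases, the direct targets of the inhibitors, 2 rose and 3 fell, with a median of 0.08. Ccne1 (cyclin E1), the partner of Cdk2, rose 2.30-fold from 10.31 ± 0.25 to 11.52 ± 0.18 (SD, n = 3; limma adjusted p = 0.00592), and Ccna2 (cyclin A2) rose 1.42-fold. Ccnd1 (cyclin D1) was 1.98-fold and Ccnd2 (cyclin D2) 1.45-fold lower (adjusted p = 0.0451 and 0.0436). Cdk6, a main target of Cdkn2c, also fell, by 0.43 on the log2 scale (adjusted p = 0.0275), and is named here after its value was seen. It lost its call without GFP-negative array 2 or 3 or GFP-positive array 2 or 3 (adjusted p up to 0.101). It also lost it without both arrays with Jchain signal (0.137) and with a block for replicate number (0.0700). Ccne1 kept its call without each single array. Ccnd1 lost it without any 1 of the 6, and Ccnd2 lost it in all cases but that of GFP-positive array 1 (adjusted p up to 0.132). Ccnd2 also lost it with array medians subtracted (0.0519) and with a block for replicate number (0.0630). Ccna2 lost it without GFP-negative array 3, GFP-positive array 2 or GFP-positive array 3 (adjusted p up to 0.0637). The counts with 1 array left out were 1 to 2 higher and 0 to 2 lower.

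Partners of the pocket proteins changed in part. Of 17 genes of the E2F family and the DREAM complex, which Rbl1 and Rbl2 form with E2F4 to silence cell cycle genes, 3 rose and 0 fell, with a median of 0.05. E2f4, an E2F of that complex, rose 1.75-fold from 9.19 ± 0.20 to 9.99 ± 0.11 (SD, n = 3; limma adjusted p = 0.0117) and kept its call without each single array. E2f5 was not called, with a difference of -0.10 (limma adjusted p = 0.771). Mybl2, which replaces the pocket proteins in that complex in cycling cells, rose 1.75-fold (adjusted p = 0.0185), and E2f2 rose 1.37-fold (adjusted p = 0.0357). Mybl2 kept its call only without GFP-negative array 1 or GFP-positive array 1 (adjusted p up to 0.0688), and E2f2 without no single array (up to 0.116). The count with 1 array left out was 1 to 3.

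Genes that E2F and the pocket proteins control were higher in part. Of 21 replication genes, 5 rose and 0 fell, with a median of 0.19. The origin protein Orc1 rose 1.85-fold (limma adjusted p = 0.0122), thymidylate synthase Tyms 1.56-fold, the licensing factor Cdc6 1.49-fold and the ribonucleotide reductase subunit Rrm1 1.36-fold. The helicase genes Mcm2 to Mcm7 were not called. Orc1 kept its call without each single array, whereas Tyms, Cdc6 and Rrm1 lost it without some (adjusted p up to 0.0659, 0.0857 and 0.0977), and the count was 1 to 3 with 1 array left out. Of 17 mitosis genes that the DREAM complex is known to silence, 10 rose and 0 fell, with a median of 0.55, and the groups did not overlap in 17 of 17, against 28.9% of all genes with GFP-positive arrays higher. The mitotic kinase Plk1 rose 2.62-fold from 8.68 ± 0.21 to 10.07 ± 0.10 (adjusted p = 0.00194) and Aurka 2.19-fold from 9.65 ± 0.28 to 10.78 ± 0.22 (adjusted p = 0.0107). The phosphatase Cdc25c rose 1.91-fold and the centromere protein Cenpf 1.90-fold (adjusted p = 0.0205 and 0.0293). Plk1 and Aurka kept their calls without each single array. Cdc25c lost it without GFP-positive array 1 or 2 (adjusted p up to 0.0697), and Cenpf without any but GFP-positive array 1 or 2 (up to 0.0948). The count of mitosis genes was 4 to 7 with 1 array left out and 1 without both arrays with Jchain signal, while their median stayed between 0.47 and 0.59 with 1 array left out. The erythroid marker sums given above moved with these genes, and their part was not tested.

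**Figure D5:**
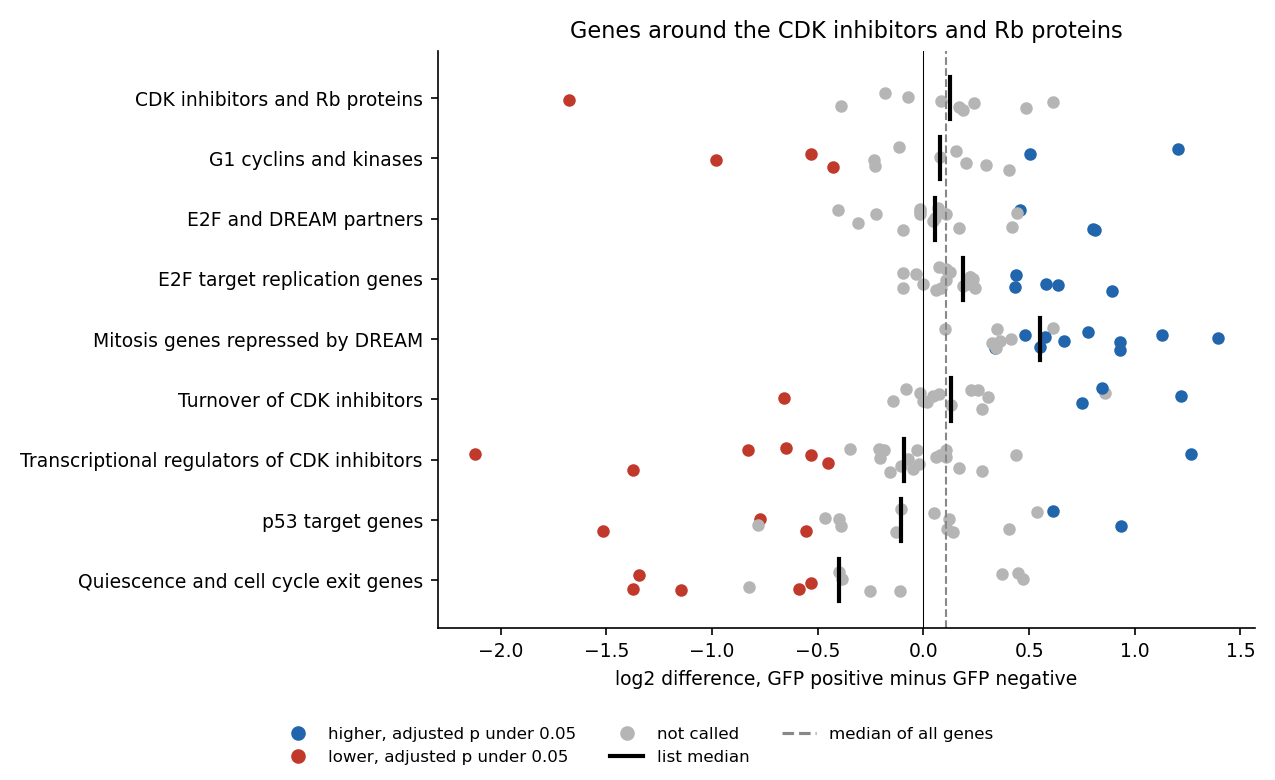
Log2 difference between GFP-positive and GFP-negative arrays (horizontal axis) for each gene of the member set and of 8 related lists, 1 point a gene at its brightest probe set; blue points were called higher, red points lower, black bars are list medians and the dashed line the median of all genes, 0.11. The mitosis list has 10 blue and 0 red points, and the list of quiescence genes 5 red and 0 blue.

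Genes that control the inhibitors themselves moved both ways. Of 17 genes for the turnover of inhibitor proteins, 3 rose and 1 fell, with a median of 0.13. Ubac1 and Rnf123, the 2 subunits of a ubiquitin ligase for p27 in the cytoplasm, rose 2.33-fold (10.97 ± 0.10 to 12.19 ± 0.01; limma adjusted p = 0.00124) and 1.80-fold (adjusted p = 0.0421). The scaffold Cul4a of a ligase for p21 and p27 rose 1.68-fold (adjusted p = 0.0373), and the kinase Pim1, which phosphorylates p21 and p27, was 1.58-fold lower (adjusted p = 0.0198). Skp2 and Cks1b, the receptor and cofactor of the nuclear ligase for p27, had differences of -0.01 and 0.07 and were named after their values were seen. Ubac1 kept its call without each single array, and Rnf123, Cul4a and Pim1 lost theirs without some (adjusted p up to 0.119, 0.103 and 0.0697). The count was 1 to 2 higher and 0 to 1 lower with 1 array left out.

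Of 24 transcriptional regulators of the inhibitors, 1 rose, which was Hes1 itself, the gene that carries the reporter, and 6 fell, with a median of -0.09. Klf4, which activates Cdkn1a transcription, was 4.36-fold lower (9.19 ± 0.33 to 7.07 ± 0.46; limma adjusted p = 0.00487), Gfi1, a repressor that also marks granulocyte precursors, 2.59-fold and Smad4, the common partner in transforming growth factor beta signalling, 1.78-fold. Klf4 is itself a monocyte marker, and on GFP-positive array 1 it read 6.61, within the range of genes of unrelated tissues. Klf4 and Smad4 kept their calls without each single array, and Gfi1 lost its call in 4 of 6 cases, all but those of GFP-positive arrays 1 and 2 (adjusted p up to 0.0667). The count of falls was 3 to 6 with 1 array left out. Of 17 other p53 target genes, 2 rose and 3 fell, and 8 of the 17 were above 0 in difference. The part of p53 in the Cdkn1a result was not tested. Pmaip1 (Noxa), a death gene, fell from 8.27 ± 0.24 to 6.75 ± 0.26 (adjusted p = 0.00391), a level within the range of genes of unrelated tissues, and Trp53inp1 was 1.71-fold lower. Sesn2, a sestrin, rose 1.91-fold and Gadd45a, a stress gene, 1.53-fold (adjusted p = 0.0215 and 0.00954). Sesn2 and Trp53inp1 lost their calls without some single arrays (adjusted p up to 0.0788 and 0.0779). The counts were 1 to 2 higher and 1 to 3 lower with 1 array left out, and the list median of -0.10 was 0.07 without GFP-positive array 1 and 0.10 without both arrays with Jchain signal.

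Of 13 genes of quiescence and cell cycle exit, 5 fell and 0 rose, with a median of -0.40. The genes of stem and multipotent cells given above, of which 10 of 10 fell with a median of -1.63, moved with this list, and their part was not tested. Ccng2, an unconventional cyclin of arrested cells, was 2.59-fold lower (10.24 ± 0.14 to 8.87 ± 0.16; limma adjusted p = 0.00183), and Mxd4, an antagonist of Myc, 2.22-fold (adjusted p = 0.00452). Ndn (necdin), a growth suppressor that binds E2F1, fell from 6.96 ± 0.48 to 5.61 ± 0.16 (limma adjusted p = 0.0164), a level within the range of genes of unrelated tissues, so no fold is given. Txnip, a thioredoxin-binding protein, fell by 0.59 on the log2 scale (limma adjusted p = 0.0185). Ccng2 and Mxd4 kept their calls without each single array, Ndn lost it without GFP-positive array 1 or 3 and Txnip without 4 of 6 (adjusted p up to 0.0550 and 0.0731). The count was 3 to 5 with 1 array left out. For Ccne1, Cdc25c and Ndn the probe set used is of a type (_x_at) that may cross-hybridise with similar transcripts. Some named list genes had only part of their probe sets called. These were 1 of 2 for Aurka, Orc1, Mybl2, Sesn2, Trp53inp1, Pim1 and Txnip, and 2 of 3 for Ccnd1, Cdk6, Rrm1 and Cenpf. For Tyms and Mxd4 it was 2 of 4, for Ccnd2 5 of 7 and for Ndn 3 of 8. In these genes 0 probe sets were called in the other direction. Some list genes not called at their brightest probe set had others called higher. These were 2 of 5 for Cdk7, whose brightest lay at -0.23, 2 of 3 for Rrm2 and Ccng1, and 2 of 4 for Tfdp2 and Tpx2. For Aurkb it was 1 of 2, for Akt1 1 of 4 and for Cbx7 1 of 3. Read at the probe set of highest variance, 32 list genes rose and 14 fell, against 26 and 18 at the brightest. Over the 8 lists, 31 called genes were named by their size of change, which leaves Cdk6 out. Of these, 13 kept their call without each single array, and 6 (Plk1, Ubac1, Klf4, Hes1, Pmaip1 and Ccng2) kept it without both arrays with Jchain signal.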

How the data were processed

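RNA (5 ng a sample, amplified with an Ovation kit per the labels) was read on Affymetrix arrays, 3 a group. The authors deposited 1 linear intensity for each probe set, made with RMA per the submitters' processing notes, whose version and settings were not given in the sources used here. Precision is limited by the number of arrays. Values were taken to log2 with no further normalization, 64 control probe sets were left out, and 45037 were fitted (limma 3.58.1, R 4.3.3) by lmFit with eBayes and no covariate, 2-sided, at 6.38 total degrees of freedom, with Benjamini-Hochberg adjustment over all of them at 0.05. Each gene was read at its brightest probe set by mean. In GEO's platform annotation 34945 probe sets have 1 gene, 932 several and 9160 none; all 17 member probe sets matched RefSeq by gene ID and symbol.

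The members, lists and alternatives, including leaving out both arrays with Jchain signal, were chosen with earlier results of these data known. Named genes were all members, up to 4 called genes of each list with the largest change, the 3 nearest in pattern to a called member, Hes1, and others as stated. Other settings tried were a block for replicate number, an intensity trend with robust priors, repeated quantile normalization, subtracted array medians, the brighter 22519 probe sets, array weights, the probe set of highest variance and leaving out arrays. The fit was tested on simulated data. Tables used Python 3.11.15, pandas 2.3.3 and numpy 2.4.6, and figures matplotlib 3.10.9.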

Additional observations from a re-analysis of the deposited data

How the results depend on the processing

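The fall of Cdkn1a kept its direction in every alternative for both probe sets, and the brighter one was called in 11 of 13 alternatives and the dimmer in 5 of 13. The count of member probe sets called lower, 2 with all arrays, was 1 with an intensity trend and 1 with the replicate block. It was 1 without both arrays with Jchain signal, and 0 to 2 with 1 array left out. By gene it was 0 to 1 with 1 array left out. The count called higher, 0 with all arrays, was 2 with array medians subtracted (Rb1 and Cdkn2c), and 1 (Rb1) with array weights, the brighter probe sets only, an intensity trend or the replicate block, by probe set and by gene alike, and 0 to 1 with 1 array left out. Over all probe sets 5218 were called higher with array medians subtracted, against 2860, which moves the median difference by 0.08. Without both arrays with Jchain signal 681 were higher and 1652 lower, and with 1 array left out 1212 to 2243 and 2192 to 3098. Over the 8 lists 26 distinct genes rose and 18 fell; 3 and 3 did without both of those arrays, and 10 to 18 and 9 to 15 with 1 array left out. Values near 0 changed sign. Cdkn1b 1434045_at was -0.0088 with array weights and -0.081 to 0.13 with 1 array left out. Rbl1 1432604_at was -0.59 to 0.12 with 1 array left out, and Rbl2 1425981_a_at 0.0035 with medians subtracted. Rbl2 1418146_a_at was 0.022 with array weights, 0.084 after quantile normalization and -0.25 to 0.11 with 1 array left out. Skp2 was 0.063 with medians subtracted and -0.087 to 0.030 with 1 array left out, and Cks1b -0.0052 to 0.13. Where a fit has fewer arrays or probe sets, that alone changes the counts; for the others the cause was not tested. Same-numbered arrays of the 2 groups deviated together at r = 0.02 to 0.05 over probe sets, and differently numbered ones at -0.04 to 0.02. Each array correlated best with its own number, and these values do not settle whether the numbers are pairs. The main fit has no block. With it, Mybl2, Tyms, Cdc6, Rrm1, Cenpf, Ccnd2, Cdk6, Alcam, Lpcat2 and the dimmer Cdkn1a probe set lost their calls (limma adjusted p 0.0505 to 0.0782). A group left with 2 arrays has a spread pooled over both groups. Dim signal limits 6 member probe sets. Among GFP-positive arrays it also limits the dimmer Cdkn1a probe set, and the brighter one on array 2.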

Other observations

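Genes that share a name stem with the members, but are no members, were read after the results were known. Cdkn3, a phosphatase that acts on Cdk2 and peaks in mitosis, read 10.44, 10.02 and 9.70 in GFP-negative and 10.77, 10.69 and 10.27 in GFP-positive arrays, a difference of 0.52 that was not called (limma adjusted p = 0.173). Cdkn2aipnl had a difference of 0.30 (adjusted p = 0.131). Rb1cc1, an autophagy scaffold named for a link to Rb1, read 11.09, 10.93 and 11.18 against 10.85, 10.61 and 10.58, groups that did not overlap, with a difference of -0.39 (adjusted p = 0.0807). The Rb-binding histone chaperones Rbbp4 and Rbbp7 differed by -0.01 and 0.02. Of the 11 genes of these name stems, 0 were called, against 18.1% of all genes. The groups did not overlap for Rb1cc1 and Cdkn2aipnl, as for 45.6% of all genes.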
